A study of Mus musculus with 12 samples.

Results

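Cd200 and 9 further genes of immune checkpoints were followed through 12 RNA libraries made from D2A1, a mammary carcinoma line of the mouse, recovered from the lungs of mice after tail vein injection. The 10 genes were taken by name as ligands and receptors of inhibitory immune signalling, out of 54146 genes in the table. They comprise 6 ligands (Cd200, Cd274, Cd47, Lgals9, Pvr and Cd24a) and 4 receptors (Cd200r1, Havcr2, Lilrb4a and Sirpa). All groups held the same line with an inducible histone fused to green fluorescent protein, and cells were stained before injection with CellVue Claret, a membrane dye that is diluted at each division. GFP-positive cells were sorted as dormant where the dye was retained and as growing where it was gone. Hosts were either KO mice, in which Tgfbr2 (the type II receptor for transforming growth factor beta) had been deleted in myeloid cells by Cre driven from the Lyz2 promoter, or controls, labelled WT and described in the study as mice with the floxed gene. Crossing state with host gave 4 groups of 3 libraries, dormant and growing WT, and dormant and growing KO. Values are TPM (a relative transcript level corrected for length). By the study's methods the hosts were young adult females, and their strain was not given in the sources used here. The study asked whether dormant cells in KO hosts engage checkpoint pathways, CD200 among them, that restrain host immunity.

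Immune checkpoints are pairs of surface proteins through which a cell restrains the immune cells that touch it. The ligands CD200, CD47, CD24 and PD-L1 (encoded by Cd274) can be carried by tumour cells as well as by normal tissue. Their receptors, such as CD200R1 and SIRP alpha, sit mainly on macrophages, neutrophils and lymphocytes, where they signal through phosphatases and adaptor proteins. CD200 is also a normal surface protein of endothelium, neurons and some lymphocytes.

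Several facts about the libraries touch the results below. The column names put every WT library in batch 1 and every KO library in batch 2, and host and batch cannot be told apart. Between 11325 and 15315 genes were above 0 per library. The dormant WT libraries held 22, 114 and 61 genes listed at 0 that had at least 10 TPM in each of the other libraries, whereas no library of another group held more than 2 such genes. The keratins Krt8 and Krt18, found in simple epithelia and carcinomas, were between 52.1 and 519 TPM in all libraries, with a lower mean of Krt8 for dormant KO (79.4 TPM) than for dormant WT (251 TPM). Krt18 overlapped between these groups, with 159 to 249 TPM in dormant KO and 131 to 231 in dormant WT. Other keratins split the groups, as Krt19 had 252 to 418 TPM in dormant KO, 11.3 to 14.2 in growing KO and at most 7.02 in any WT library, and Krt7 had 29.6 to 61.5 TPM in dormant KO and was listed at 0 in all WT libraries. The epithelial adhesion genes Epcam and Cdh1 were between 0 and 5.34 TPM. Markers of host lung cells were present as well, and most so in dormant KO. Tgfbr2 itself lay between 0.14 and 11.5 TPM across the dormant libraries and between 0.44 and 1.58 TPM across the growing ones. Because host cells carried the deletion, this level in sorted tumour cells checks no host label.

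Cd200 (ENSMUSG00000022661.14, chromosome 16, bases 45382135 to 45409053 of GRCm38, minus strand) was detected in KO hosts and in no WT library. Its level was 593, 639.9 and 487 TPM in dormant KO (573 ± 78.5, mean ± SD, n = 3) and 26.0, 7.16 and 6.19 TPM in growing KO (13.1 ± 11.2, n = 3). It was listed at 0 in all 3 dormant WT and all 3 growing WT libraries. No group that had a value overlapped another, and Cd200 held rank 296 by mean TPM among the 18653 genes above 0 in dormant KO and rank 4784 of 16611 in growing KO. The gene was higher in KO than in WT hosts among dormant libraries (limma adjusted p = 9.64e-07) and among growing libraries (adjusted p = 0.00895). Cd200 reached the filter for testing, at least 1 TPM in at least 3 libraries, only through KO libraries, which favours a difference between hosts. With no filter the adjusted p among dormant libraries was 3.08e-06. No fold is given for these contrasts because the WT groups are listed at 0, and the growing contrast lost its call with a pseudocount of 5 (adjusted p = 0.0878). Within KO hosts, where both groups lie in 1 batch, the dormant mean was 43.7 times the growing mean, and growing KO replicate 1 (26.0 TPM) lowered this ratio. The difference was 5.61 ± 0.55 (SE) on the log2(TPM + 1) scale (adjusted p = 4.52e-05). The interaction of state and host (adjusted p = 0.00126) repeats this difference, since Cd200 was listed at 0 in both WT groups, and is no separate comparison of hosts. No other gene shared 100 or more bases of Cd200's transcripts at 90% identity, and no annotated gene overlapped it.

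**Figure D1:**
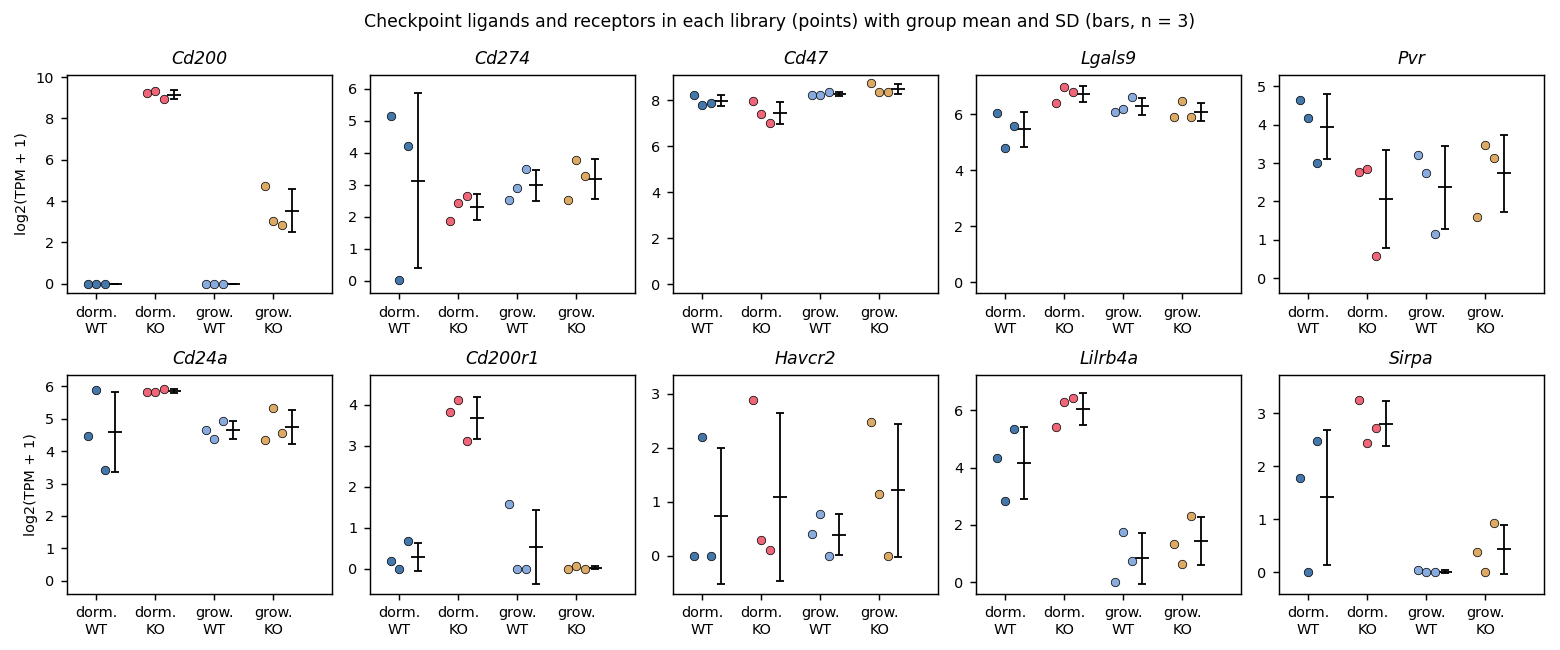
Level of each of the 10 genes on a log2(TPM + 1) scale (vertical axis, scaled per gene) in the 4 groups (horizontal axis). Points are the 3 libraries, and the bar beside them is the group mean with its SD. Cd200 lies at 0 in all 6 WT libraries, Cd47 and Lgals9 are present in all libraries, and Lilrb4a is higher in the dormant than in the growing groups.

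The proximal promoters of Cd200 and Lgals9, the ligands that were called between hosts among dormant libraries, are shown because both contrasts bear on transcript level. They are the 250 bases before the RefSeq start site on GRCm38.p6, 5′ to 3′ on the strand of the gene, at chr16:45409054-45409303 (minus strand) for Cd200 and chr11:78984925-78985174 (minus strand) for Lgals9. Capitals mark CACCC, the core letters bound by Krüppel-like factors, and GGGCGG, the GC box, each on either strand.
Cd200: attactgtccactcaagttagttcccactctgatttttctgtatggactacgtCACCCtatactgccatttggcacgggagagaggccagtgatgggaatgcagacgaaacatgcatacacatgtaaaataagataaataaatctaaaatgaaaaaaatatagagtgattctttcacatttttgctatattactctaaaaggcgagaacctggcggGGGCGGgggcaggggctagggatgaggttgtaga
Lgals9: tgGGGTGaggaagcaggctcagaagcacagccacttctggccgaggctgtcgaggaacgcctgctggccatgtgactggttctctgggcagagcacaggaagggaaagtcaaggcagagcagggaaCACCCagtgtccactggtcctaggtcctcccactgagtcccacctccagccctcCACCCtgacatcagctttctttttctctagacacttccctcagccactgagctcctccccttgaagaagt
Promoter entries were found for 5 of the 10 genes (Cd200, Cd274, Cd47 with 2 start sites, Lgals9 and Havcr2). The longer motif CCCCACCC of KLF4, a transcription factor the study dealt with, was absent on both strands from all 6 windows of 300 bases, and 9.99% of 32851 such windows held it. The letters TTCNNNGAA, recognised by STAT factors, were likewise absent there, against 8.3% of all windows. CACCC was found in each of the 6 windows and in 57.5% of all, and starts at position -197 in Cd200 and at -248, -124 and -70 in Lgals9, counted from the start site. GGGCGG starts at -34 in Cd200, was absent from Lgals9 and Havcr2, and was held by 35.7% of all windows. The letters CACCC and GGGCGG were chosen after the values had been seen. A match of letters is a description and not a site of binding, and an absence holds for these exact letters in these windows, not for longer promoters, for variants of a motif or for the binding of a factor.

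The genes whose pattern over the 12 libraries was most like that of Cd200 were Gas6 (Pearson r = 0.9953), RP23-100C7.3 (0.9908), Slurp1 (0.9892), C2 (0.9888) and Ripply3 (0.9887). These correlations describe 12 libraries in 4 groups and carry no p. Gas6, which encodes a ligand of the TAM receptor kinases, had 52.0, 89.5 and 46.2 TPM in dormant KO and 9.93, 2.83 and 3.42 in growing KO. Slurp1, which encodes a secreted protein of the Ly6 family, had 666, 742 and 799 TPM in dormant KO and 6.62, 5.79 and 5.42 in growing KO. Slurp1 was at most 0.09 TPM in the WT libraries and Gas6 at most 0.32.

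Markers of many host cell types were highest in dormant KO, as Cd200 was. The mesothelial genes Upk3b, Wt1, Lrrn4, Upk1b and Gpm6a were listed at 0 in all 6 WT libraries, and the sum over 6 mesothelial markers was between 706 and 1192 TPM in dormant KO, 51.2 and 90.1 in growing KO, 0 and 55.6 in dormant WT, and 21.1 and 26.4 in growing WT. The sum over 8 endothelial markers was between 640 and 760 TPM in dormant KO, 33.8 and 47.9 in growing KO, 11.1 and 75.7 in dormant WT, and 5.73 and 11 in growing WT. The endothelial gene Emcn had an r of 0.981 with Cd200, which is place 16 of the genes tested, the surfactant gene Sftpa1 0.980 (place 17), Sftpc 0.978 (place 22) and Upk3b 0.972 (place 38). Growing KO held 2.29% of the dormant KO level of Cd200, against 5.04% for Emcn, 9.64% for Upk3b, 1.36% for Sftpa1 and 1.08% for Sftpc. Other markers lay near Cd200, such as alveolar type 1 Hopx (2.29%), endothelial Kdr (2.32%) and mesothelial Gpm6a (2.11%). The growing KO mean of Cd200 was raised by replicate 1 (26.0 TPM, beside 7.16 and 6.19). Alveolar type 2 markers summed to between 39978 and 42374 TPM in dormant KO, 454 and 464 in growing KO, 48.6 and 141 in dormant WT, and 49.6 and 89.8 in growing WT. The sum over 6 fibroblast and pericyte markers was between 1120 and 1380 TPM in dormant KO, 264 and 279 in growing KO, and 17.1 and 30.9 over the WT libraries. Single markers did not follow their list, such as Abca3 of alveolar type 2 cells (r = -0.183 with Cd200), Aqp5 of alveolar type 1 cells (-0.115), and Pdgfra (-0.547) and Pdgfrb (-0.341) of fibroblasts and pericytes, beside Tcf21 (0.912), Dcn (0.884), Col1a2 (0.824) and Col1a1 (0.404) of the same list. Markers of blood cells were also highest in dormant KO. The sum over 5 B cell markers was between 97.1 and 148 TPM in dormant KO, 5.18 and 14.2 in growing KO, 0.02 and 2.24 in dormant WT, and 2.90 and 9.91 in growing WT, and Cd79b of this list had an r of 0.948 (place 104). For 4 platelet markers the sum was 597 to 781 TPM in dormant KO and at most 169 in any other library, and for 5 erythroid markers it was 50831 to 56264 TPM in dormant KO and 6196 to 13031 elsewhere. The part of these cells in the Cd200 level was not tested. In bulk libraries, fewer cells of a type and less RNA per cell cannot be told apart.

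**Figure D2:**
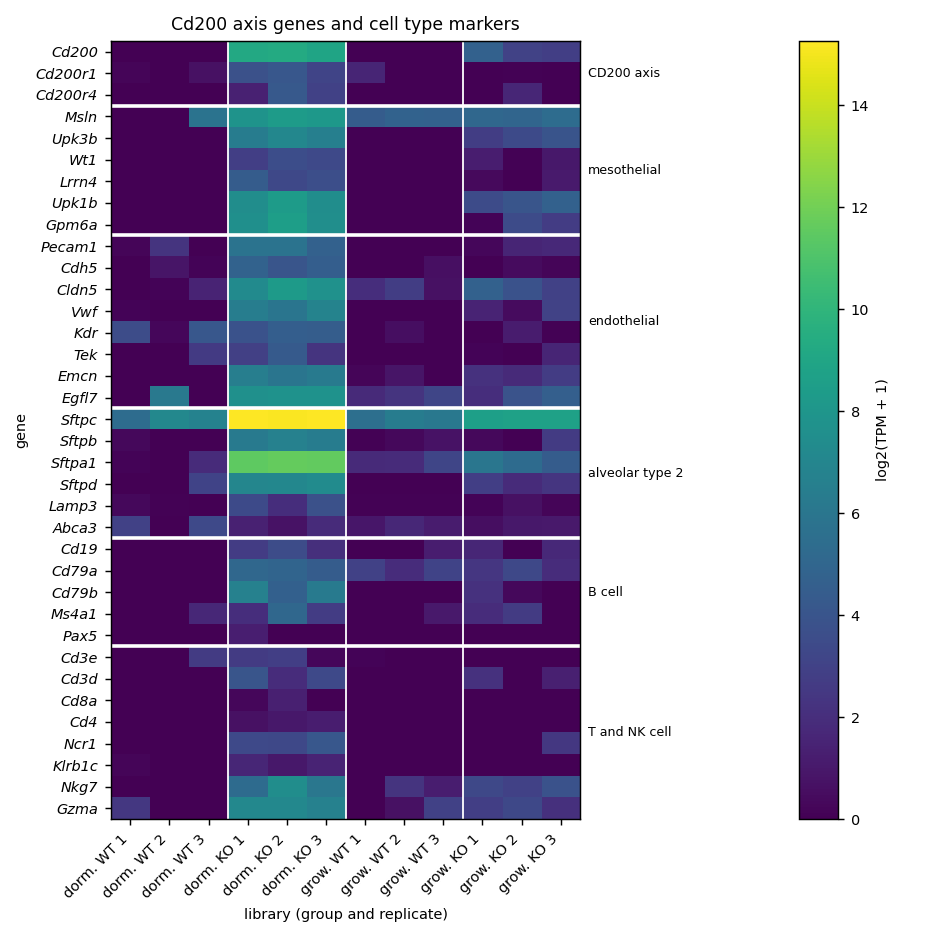
Levels on a log2(TPM + 1) scale (colour) of Cd200, Cd200r1 and Cd200r4 and of markers of 5 host cell types (rows) in the 12 libraries (columns, by group and replicate). Cd200 is dark in the 6 WT libraries and brightest in dormant KO, as are Upk3b, Emcn and Sftpa1.

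Cd200r1 (ENSMUSG00000022667.18, chromosome 16, 44765736 to 44794978 on the plus strand), the inhibitory receptor for CD200, was also highest in dormant KO. It had 13.1, 16.5 and 7.68 TPM in dormant KO (12.4 ± 4.44, SD, n = 3), 0.14, 0 and 0.59 in dormant WT, 0, 0.05 and 0 in growing KO, and 1.97, 0 and 0 in growing WT. The dormant KO libraries lay above all others, and the other 3 groups overlapped each other. Cd200r1 reached the filter for testing, at least 1 TPM in at least 3 libraries, only through dormant KO, so a difference in its favour was built into being tested, and the following values describe its size. Against dormant WT, Cd200r1 was higher in dormant KO by 3.40 ± 0.50 on the log2(TPM + 1) scale (adjusted p = 0.000442) and against growing KO by 3.66 ± 0.50 (adjusted p = 0.00037). The interaction was 3.90 ± 0.70 (adjusted p = 0.00502) and lost its call with array weights (adjusted p = 0.053). With no filter the adjusted p of these 3 values was 0.00265, 0.00233 and 0.0193. Receptor and ligand transcripts were both at their highest in the libraries sorted as dormant tumour cells of KO hosts, with a mean level per length of 12.4 TPM for Cd200r1 and 573 TPM for Cd200.

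Cd200r4, an activating relative of Cd200r1, shared 625 bases with it at 93.8% identity, so that the split of reads between them is uncertain. Cd200r4 had 1.68, 18.0 and 6.88 TPM in dormant KO, was listed at 0 in all WT libraries, and had 0, 2.13 and 0 TPM in growing KO. Its dormant KO level was called higher against dormant WT (adjusted p = 0.00704) and against growing KO (2.33 ± 0.65, adjusted p = 0.0262). The call against dormant WT was lost in a fit of only the groups compared (adjusted p = 0.0728) and with array weights (adjusted p = 0.126), and that against growing KO in 6 of the alternatives, among them no filter (adjusted p = 0.0802) and leaving out dormant KO replicate 2 (adjusted p = 0.0757) or 3 (adjusted p = 0.0678), or growing KO replicate 1 (adjusted p = 0.0996) or 3 (adjusted p = 0.0995). Cd200r4 too reached the filter only through dormant KO. Cd200r2 and Cd200r3 were listed at 0 in all 12 libraries. The genes most like Cd200r1 over the libraries were Adap1 (r = 0.9874), Slc39a8 (0.9767) and Fermt3 (0.9753).

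Leukocyte markers were highest in dormant KO by their sums, as Cd200r1, Lilrb4a, Sirpa and Havcr2 were by their means. The Havcr2 mean there (2.22 TPM, against 1.92 in growing KO) was carried by replicate 1 (6.37 TPM, beside 0.22 and 0.07), and its groups overlapped. Between dormant and growing WT, the pan-leukocyte, macrophage and neutrophil sums were higher in the dormant libraries, while Cd200r1 (means of 0.243 and 0.657 TPM) and the sums of T and NK cell (3.38 and 4.17), B cell (0.76 and 6.54) and dendritic cell markers (0.157 and 0.153) overlapped or were lower there. The sum over 5 pan-leukocyte genes was between 1016 and 1281 TPM in dormant KO, 271 and 483 in dormant WT, 46.8 and 59.4 in growing KO and 6.78 and 22.7 in growing WT. The sum over 8 macrophage genes was between 3172 and 3285 TPM in dormant KO, 873 and 1571 in dormant WT, 118 and 169 in growing KO, and 35.2 and 72.2 in growing WT. Lyz2 made up most of the macrophage sum, with a mean of 2898 TPM in dormant KO, whereas the means of Mrc1 (12.5 TPM), Adgre1 (1.59) and Marco (1.05) there were under those in dormant WT (25.2, 3.31 and 6.57). The sum over 7 neutrophil genes was between 4345 and 4834 TPM in dormant KO, 485 and 915 in dormant WT, 103 and 113 in growing KO and 52.0 and 78.0 in growing WT. Ptprc, the pan-leukocyte surface phosphatase CD45, had 46.6, 46.4 and 13.5 TPM in dormant WT and 23.4, 25.4 and 25.0 in dormant KO, against 0 to 2.26 in the growing libraries. The dormant groups overlapped in Ptprc and Laptm5. They lay apart in the other 3 pan-leukocyte genes, with 763 to 1038 TPM of Cd52 in dormant KO against 248 to 335 in dormant WT, 123 to 142 against 1.07 to 86.4 of Cd53, and 39.4 to 74.6 against 0 to 6.04 of Coro1a. The part of host leukocytes in the receptor levels was not tested.

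Lilrb4a (ENSMUSG00000112148.1, chromosome 10, 51490956 to 51496611 on the plus strand) encodes an inhibitory receptor of macrophages and other myeloid cells. Its level was 19.1, 6.07 and 39.3 TPM in dormant WT, 41.4, 77.9 and 85.5 in dormant KO, 1.54, 0.55 and 3.94 in growing KO, and 0, 2.41 and 0.68 in growing WT. Both dormant groups lay above both growing groups. It was higher in dormant than in growing libraries by 3.32 ± 0.76 in WT hosts (adjusted p = 0.0208) and by 4.62 ± 0.76 in KO hosts (adjusted p = 0.00123), with an interaction of 1.30 ± 1.07 that was not called (adjusted p = 0.544). The WT call was lost in 4 of 21 alternatives, among them leaving out growing WT replicate 1 (adjusted p = 0.0894) or replicate 3 (adjusted p = 0.0723), whereas the KO call held in all 21. The dormant KO libraries lay above the dormant WT libraries, yet the difference of 1.89 ± 0.76 was not called (adjusted p = 0.0968). It became a call in 4 alternatives, namely a pseudocount of 5 (1.63, adjusted p = 0.0339), median-ratio scaling (2.39, adjusted p = 0.0279), quantile normalization (2.14, adjusted p = 0.0283), and without dormant WT replicate 3 (2.47, adjusted p = 0.0324). Lilrb4a shared 3786 aligned bases at 95.4% identity with Lilrb4b, listed as Lilr4b, and overlapped another gene model on its own strand and 1 on the other, so its level is uncertain.

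Sirpa (ENSMUSG00000037902.18, chromosome 2, 129592835 to 129632228 on the plus strand) encodes the macrophage receptor for CD47. It had 2.43, 0 and 4.52 TPM in dormant WT, 8.54, 4.42 and 5.56 in dormant KO, 0.30, 0 and 0.90 in growing KO, and 0.03, 0 and 0 in growing WT. In KO hosts the dormant libraries lay above the growing ones, by 2.37 ± 0.59 (adjusted p = 0.0144). Sirpa reached the filter only through dormant KO, which favours such a difference. That call was lost in 4 of 20 alternatives, namely no filter (adjusted p = 0.051), a pseudocount of 0.1 (adjusted p = 0.0628), and without dormant KO replicate 1 (adjusted p = 0.0504) and without growing KO replicate 2 (adjusted p = 0.0627). The corresponding difference in WT hosts was 1.40 ± 0.59 (adjusted p = 0.174) and became a call without dormant WT replicate 2, which was at 0 (2.11, adjusted p = 0.0188).

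Havcr2 (ENSMUSG00000020399.14, chromosome 11, 46454935 to 46481255 on the plus strand), which encodes TIM-3, a receptor of T cells and myeloid cells that can bind galectin-9, was low and scattered. Its level was 0, 3.57 and 0 TPM in dormant WT, 6.37, 0.22 and 0.07 in dormant KO, 4.55, 1.22 and 0 in growing KO, and 0.32, 0.71 and 0 in growing WT. All groups overlapped and none of the 5 contrasts was called, with adjusted p between 0.82 and 1. The SE of 0.87 for each pairwise contrast leaves differences of the size called for other genes within reach.

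**Figure D3:**
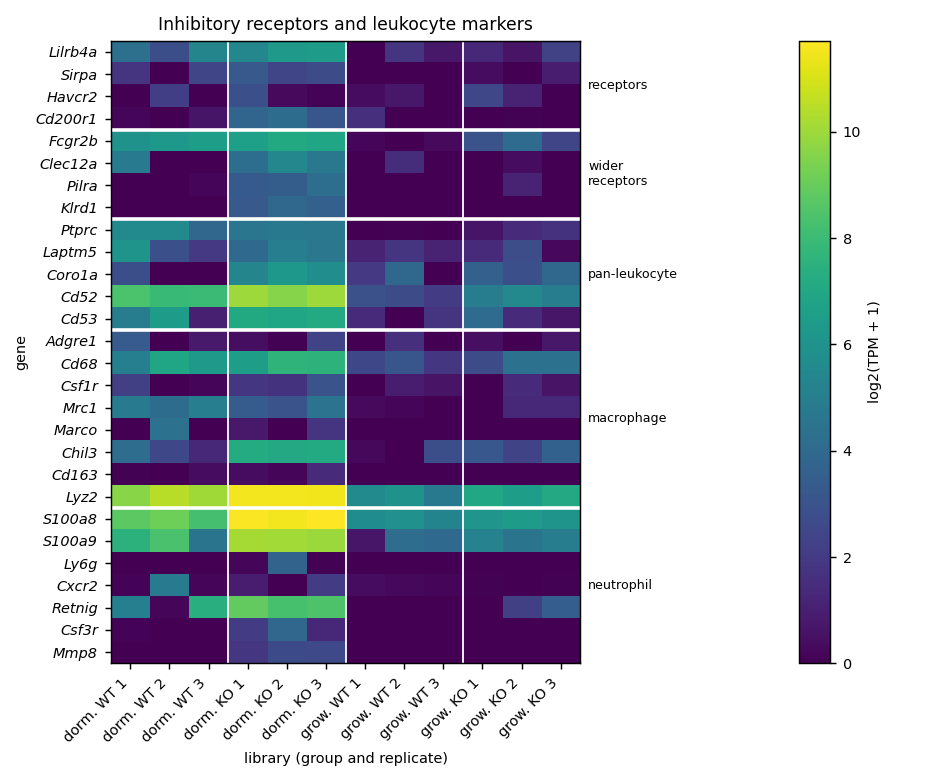
Levels on a log2(TPM + 1) scale (colour) of 8 inhibitory receptors and of leukocyte, macrophage and neutrophil markers (rows) in the 12 libraries (columns, by group and replicate). Lilrb4a and Fcgr2b are bright in both dormant groups, whereas Cd200r1, Pilra and Klrd1 are bright in dormant KO.

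Among the ligands, Cd47 (ENSMUSG00000055447.19, chromosome 16, 49800533 to 49915010 on the plus strand), which signals to macrophages not to engulf the cell, was high in all libraries. It had 301.5, 224 and 236 TPM in dormant WT, 248, 167 and 128 in dormant KO, 424, 331 and 325 in growing KO, and 295, 298 and 329 in growing WT. The dormant KO libraries all lay below the growing KO libraries, at 0.502 times their mean, a difference of -1.03 ± 0.24 on the log2(TPM + 1) scale (adjusted p = 0.011). This call was lost with median-ratio scaling (-0.44, adjusted p = 0.283), with quantile normalization (-0.67, adjusted p = 0.0807), and without dormant KO replicate 3 (-0.81) or growing KO replicate 1 (-0.91, adjusted p = 0.0524). Dormant KO against dormant WT was -0.53 ± 0.24 (adjusted p = 0.147), growing KO against growing WT 0.22 ± 0.24, and dormant WT against growing WT -0.29 ± 0.24, with overlapping libraries in each. By mean level the order was growing KO, growing WT, dormant WT and dormant KO, and neighbours in this order overlapped.

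Lgals9 (ENSMUSG00000001123.15, chromosome 11, 78962974 to 78984946 on the minus strand) encodes galectin-9, a sugar-binding ligand of TIM-3. Its level was 64.0, 26.6 and 46.1 TPM in dormant WT, 82.6, 123 and 109.6 in dormant KO, 59.1, 86.9 and 58.4 in growing KO, and 65.5, 70.7 and 97.1 in growing WT. The dormant KO libraries lay above the dormant WT libraries, at 2.30 times their mean, a difference of 1.25 ± 0.37 (adjusted p = 0.0275). The call was lost in 6 of 21 alternatives, among them a replicate block (1.25, adjusted p = 0.0525), leaving out dormant WT replicate 2 (0.92, adjusted p = 0.0496, under the fold threshold), dormant KO replicate 2 (1.13, adjusted p = 0.0834) or dormant KO replicate 3 (1.21, adjusted p = 0.0756). Dormant WT libraries all lay below growing WT libraries, by 0.82 ± 0.37, which was not called (adjusted p = 0.2). The interaction was 1.44 ± 0.52 (adjusted p = 0.11) and became a call with median-ratio scaling (1.95, adjusted p = 0.0197), with quantile normalization (1.95, adjusted p = 0.0374) and without dormant WT replicate 1 (1.73, adjusted p = 0.0339). Dormant KO against growing KO was 0.62 ± 0.37 (adjusted p = 0.282), which became a call with median-ratio scaling (1.21, adjusted p = 0.0266).

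Cd274 (ENSMUSG00000016496.7, chromosome 19, 29367455 to 29388095 on the plus strand), which encodes PD-L1, the ligand of PD-1, was low. It had 34.2, 0.02 and 17.6 TPM in dormant WT, 2.64, 4.34 and 5.22 in dormant KO, 4.77, 12.6 and 8.64 in growing KO, and 4.79, 6.51 and 10.4 in growing WT. Dormant WT replicate 2 stood apart from the other libraries of its group, and the groups compared overlapped in every pairwise contrast. Dormant KO against dormant WT was -0.82 ± 1.07 (adjusted p = 0.637). Without dormant WT replicate 2, which had the most genes lost to 0, it was -2.37 and called (adjusted p = 0.00997), and the interaction was then -2.58 (adjusted p = 0.0475). An antisense gene overlaps Cd274, and the use of strand in counting was not stated. Cd274 was most like Syvn1 (r = 0.9629), Gna11 (0.9307) and Nt5e (0.9297), which encodes the adenosine-forming enzyme CD73.

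Pvr (ENSMUSG00000040511.14, chromosome 7, 19903578 to 19921160 on the minus strand), which encodes the poliovirus receptor CD155, a ligand of TIGIT, had 24.3, 17.2 and 7.04 TPM in dormant WT. It had 5.75, 6.16 and 0.49 TPM in dormant KO, 2.03, 10.2 and 7.76 in growing KO, and 8.27, 5.74 and 1.21 in growing WT. The dormant WT libraries lay above the dormant KO libraries, but the difference of -1.89 ± 0.85 was not called (adjusted p = 0.134). No other contrast of Pvr was called. A pseudogene and an antisense gene on the opposite strand overlap Pvr.

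Cd24a (ENSMUSG00000047139.9, chromosome 10, 43578284 to 43584265 on the plus strand), which encodes CD24, a heavily glycosylated surface protein, had 55.81, 56.04 and 59.99 TPM in dormant KO. It had 21.0, 58.6 and 9.72 TPM in dormant WT, 19.4, 39.4 and 22.7 in growing KO, and 24.5, 19.9 and 29.6 in growing WT. The dormant KO libraries lay above the growing KO libraries (1.11 ± 0.56, adjusted p = 0.208) and overlapped dormant WT (1.27 ± 0.56, adjusted p = 0.131), and neither difference was called. The former became a call in a fit of only the groups compared (adjusted p = 0.0383) and with array weights (adjusted p = 0.0481). Without dormant WT replicate 2, the latter was 1.92 (adjusted p = 0.00684), and it was also called with median-ratio scaling (1.77, adjusted p = 0.0423) and quantile normalization (1.71, adjusted p = 0.0416). The pseudogene Gm15352 shared 259 bases of Cd24a at 92.3% identity. For the remaining genes the closest pattern over the 12 libraries was that of Clec4a2 for Lilrb4a (r = 0.9391), Retnlg, listed as Retnig, for Sirpa (0.9735), Myg1 for Cd47 (0.9357), Jmjd8 for Lgals9 (0.8891), Ufsp2 for Pvr (0.9145), Rnf7 for Cd24a (0.9166) and Gm22488 for Havcr2 (0.8561). Retnlg is a neutrophil gene and Clec4a2 a myeloid receptor.

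**Figure D4:**
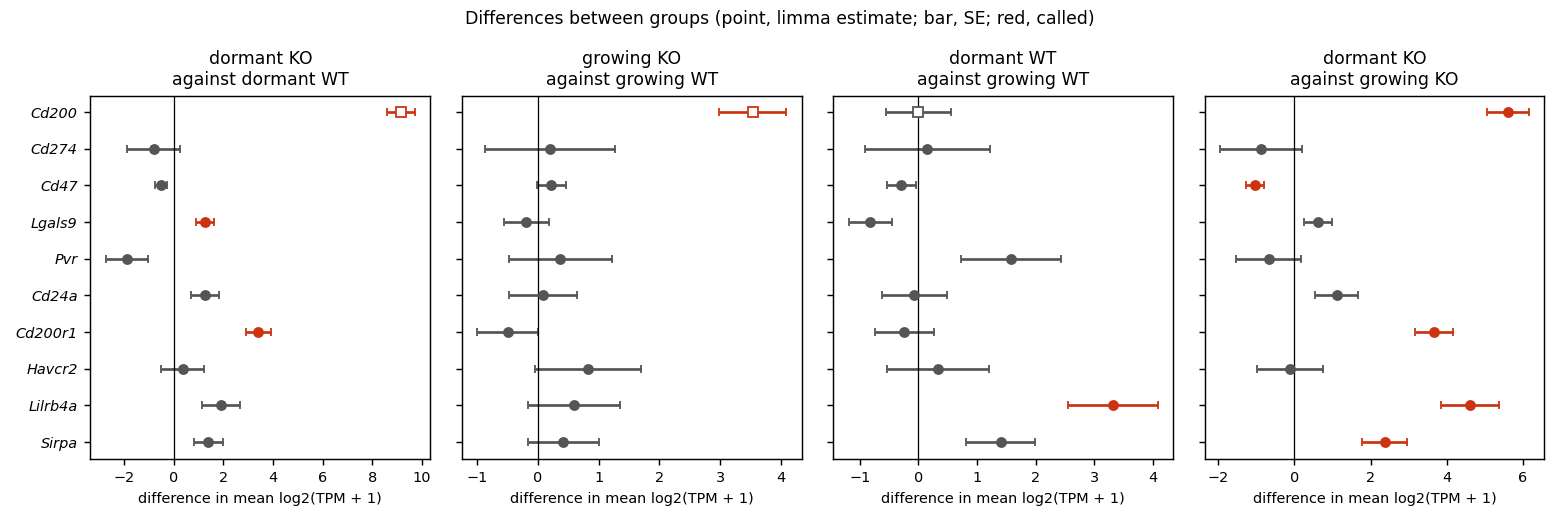
Difference in mean log2(TPM + 1) (horizontal axis) of each of the 10 genes (rows) in 4 contrasts (panels, each with its own scale), with the SE as bars. Red marks calls, and open squares mark Cd200 where the WT group compared is listed at 0, for which the value is no fold. Red points are Cd200, Cd200r1 and Lgals9 in dormant KO against dormant WT, Cd200 in growing KO against growing WT, Lilrb4a in dormant WT against growing WT, and Cd200, Cd200r1, Lilrb4a, Sirpa and Cd47 in dormant KO against growing KO.

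Over the 10 genes, 3 rose and 0 fell in dormant KO against dormant WT, where 12.9% of 13002 genes tested were called higher and 9.39% lower, and the median difference was 0.80 over the 8 that pass the filter without dormant KO (1.26 over all 10) against 0.17 over all genes tested. In growing KO against growing WT, 1 rose, where 0.715% of genes were called higher and 0.261% lower (median 0.29 against 0.02). In dormant WT against growing WT, 1 rose, where 1.85% were called higher and 5.67% lower (median 0.07 against -0.35). In dormant KO against growing KO, 4 rose and 1 fell, where 8.31% were called higher and 9.48% lower (median 0.25 over the same 8 and 0.87 over all 10, against -0.32). For the interaction 2 were called higher, where 6.18% were called higher and 3.91% lower (median 0.36 over the 8 and 1.08 over all 10, against 0.16). All 10 genes had at least 1 TPM in at least 3 libraries and were tested, but Cd200r1 and Sirpa passed this filter only through the dormant KO libraries, so their calls, 1 of the 3 in dormant KO against dormant WT, 2 of the 4 rises against growing KO and 1 of the 2 interactions, add nothing to these counts or to the medians over all 10. Cd200 passed only through KO libraries, which favours its calls between hosts. The medians over all genes tested keep genes that pass only through dormant KO, so the medians over the 8 have no like background. The contrasts share groups, so their counts are not independent of each other.

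A wider list of 55 checkpoint ligands, receptors and signalling genes, 36 of which were tested, was read in the same way. In dormant KO against dormant WT 8 rose and 2 fell, beside the 12.9% and 9.39% of all genes. Of the 36, 13 reached the filter only through dormant KO, and these include 7 of the 8 that rose (Vtcn1, Vsir, Entpd1, Klrd1, Cd200r4, Pilra and Ptpn11), so the count of rises gives no evidence about the list. The median difference was -0.02 over the 23 genes that pass without dormant KO (0.54 over all 36), against 0.17 over all genes tested. The latter was not restricted to genes that pass without dormant KO. Without the filter, Vsir (adjusted p = 0.102) and Ptpn11 (adjusted p = 0.072) were not called. The 5 with the largest differences among those that rose were Klrd1, Pilra, Cd86, Cd200r4 and Entpd1. Klrd1, the CD94 chain of NK cell receptors, had 8.76, 14.77 and 11.02 TPM in dormant KO and was listed at 0 in the other 9 libraries (adjusted p = 1.35e-05). Pilra, an inhibitory myeloid receptor, had 9.04, 10.1 and 17.7 TPM in dormant KO and at most 0.16 in dormant WT (3.60 ± 0.42, adjusted p = 9.18e-05). Cd86, the costimulatory ligand of CD28 and CTLA-4, had 6.11, 24.7 and 7.84 TPM in dormant KO and was listed at 0 in dormant WT (adjusted p = 0.00208, lost with array weights at 0.0794). Entpd1, the ectoenzyme CD39, had 2.12, 7.02 and 6.11 TPM in dormant KO and was listed at 0 in the other 9 libraries (adjusted p = 0.000422, under the fold threshold with a pseudocount of 5).

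The 2 genes of the wider list that fell were Lgals1 and Tigit. Lgals1, which encodes galectin-1, an abundant secreted lectin, had 10851, 7992 and 7524 TPM in dormant WT and 1190.4, 1170.1 and 1244 in dormant KO. The growing KO libraries had 5343, 5306 and 5640.3 TPM, and the growing WT libraries 9129, 8535 and 8838. Lgals1 fell by 2.85 ± 0.11 in dormant KO against dormant WT (adjusted p = 2.75e-08) and by 2.18 ± 0.11 against growing KO (adjusted p = 2.4e-07), and both calls held in all 21 alternatives. Tigit, a receptor for CD155, had 18.1, 64.9 and 5.68 TPM in dormant WT, 0.06, 0.52 and 6.70 in dormant KO, 41.5, 42.4 and 15.4 in growing KO, and 57.3, 34.8 and 50.3 in growing WT. It was lower in dormant KO than in dormant WT by 3.14 ± 0.90 (adjusted p = 0.0255), a call lost in 6 of 21 alternatives, among them without dormant WT replicate 2 (adjusted p = 0.0675), dormant KO replicate 1 (adjusted p = 0.1) or dormant KO replicate 2 (adjusted p = 0.0841). Tigit is otherwise known from T and NK cells, and the sum over 8 markers of these cells was between 0 and 5.38 TPM for dormant WT, 0.1 and 7.97 for growing WT, 198 and 340 for dormant KO, and 15.6 and 22.6 for growing KO.

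In dormant KO against growing KO, 10 of the wider list rose and 3 fell, beside 8.31% and 9.48% of all genes. Of the 10, 6 reached the filter only through dormant KO (Vtcn1, Entpd1, Klrd1, Cd200r4, Clec12a and Pilra), and this count too gives no evidence about the list. The median was 0.07 over the 23 genes (0.87 over all 36), against -0.32 over all genes tested, which again was not restricted. The 5 largest rises were Lilrb4b (6.22 ± 1.15, adjusted p = 0.00264), Clec12a (4.66 ± 1.10, adjusted p = 0.0111), Cd48 (3.99 ± 1.26, adjusted p = 0.0468), Fcgr2b (3.70 ± 0.48, adjusted p = 0.000271) and Klrd1 (adjusted p = 2.38e-05). The Cd48 call held in 8 of 21 alternatives. The falls were Tigit (-3.75 ± 0.90, adjusted p = 0.0125, lost without dormant KO replicate 1 at 0.0538 or growing KO replicate 2 at 0.0519), Lgals1 and Dok1, an adaptor below CD200R1 (-1.73 ± 0.49, adjusted p = 0.0288). Dok1 had 1.87, 0.08 and 0.48 TPM in dormant KO and 2.97, 7.65 and 3.89 in growing KO, and its call held in 10 of 20 alternatives. Clec12a and Pilra are receptors of myeloid cells, and Cd48 is a ligand found on most leukocytes.

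Fcgr2b, the inhibitory receptor for IgG, was the only gene of the wider list called in either of the other 2 pairwise contrasts. It had 62.1, 75.9 and 93.4 TPM in dormant WT, 97.4, 136 and 117 in dormant KO, 6.87, 15.9 and 4.49 in growing KO, and 0.11, 0 and 0.21 in growing WT. It was higher in dormant WT than in growing WT by 6.13 ± 0.48 (adjusted p = 2.05e-05), and higher in growing KO than in growing WT by 3.03 ± 0.48 (adjusted p = 0.00957, lost with a pseudocount of 5). Over all genes, 1.85% were called higher in dormant WT against growing WT and 0.715% in growing KO against growing WT. For the interaction, Klrd1, Pilra, Entpd1 and Vtcn1 were called higher and Lgals1 and Fcgr2b lower, beside 6.18% and 3.91% of all genes. All 4 called higher reached the filter only through dormant KO, so this count too gives no evidence about the list. The Fcgr2b call held in 6 of 20 and the Vtcn1 call in 10 of 19 alternatives. The median was -0.62 over the 23 genes that pass without dormant KO (0.47 over all 36), against 0.16 over all genes tested, which was not restricted. The receptors Pdcd1, Ctla4 and Lag3, which encode PD-1, CTLA-4 and LAG-3, did not reach the filter, with at most 0.42, 2.65 and 1.79 TPM in any library, and were singled out here after their values had been seen.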

How the data were processed

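RNA was measured in 12 libraries. Small aliquots of cells were sorted, and by the study's methods libraries were made with a full-length low-input protocol, whereas the labels name a TruSeq kit. Per the submitters' processing notes, reads were trimmed with cutadapt 1.18, aligned with STAR 2.5.2b to mm10 and quantified with RSEM 1.3.3. The deposited values are TPM, computed by the authors. TPM is scaled to 1 total in every library and keeps no depth, so the reads behind a value are unknown, and a 0 can be a failed estimate. No labelled sample matched a further 30 per-sample columns, which stayed unused.

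TPM was transformed to log2(TPM + 1), which understates the change of low genes. Genes with at least 1 TPM in at least 3 libraries (13002) were tested with limma 3.58.1 (R 4.3.3, eBayes with trend) on all 12 libraries. A gene was called at a Benjamini-Hochberg adjusted p of at most 0.05, over all genes tested, and a difference of at least 1, two-sided. The study gives separate mice as the replicates of each group, and the labels tie no library to an animal, so p-values measure the spread between these libraries. The fit shares the residual variance of a gene over the 4 groups. For genes such as Cd200, Klrd1 and Entpd1 this includes groups listed at 0 with no spread, so their p-values do not measure the spread of the libraries compared alone. Coordinates are those of GENCODE M21 on GRCm38, promoters those of RefSeq on GRCm38.p6, and similar transcripts were sought with blastn 2.17.0. Retnlg and Lilrb4b are listed under the names Retnig and Lilr4b and were matched by those names. The fit was checked on simulated data.

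The members and lists were chosen with earlier results of these data known. All 10 members are named. Of the wider list, up to 5 genes per direction and contrast with the largest called difference are named. Likeness is Pearson r with up to 5 genes for Cd200 and 3 for each other member. Alternatives were array weights, a replicate block, a fit of only the groups compared, quantile normalization, median-ratio scaling, pseudocounts of 0.1 and 5, a filter at 5 TPM or none, a fold of 1.5, and each library left out in turn.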

Additional observations from a re-analysis of the deposited data

Results flagged for a closer look

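The interaction of state and host was called for Cd200 in limma (adjusted p = 0.00126), but as Cd200 was listed at 0 in all 6 WT libraries it repeats the difference between states within KO hosts. The same test called Cd200r1 (adjusted p = 0.00502), whose highest level outside dormant KO was 1.97 TPM and which reached the filter for testing only through dormant KO. In both results host and batch cannot be told apart.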

How the results depend on the processing

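Depth is unknown and 3 libraries per group limit precision. The Cd200 calls between hosts among dormant libraries and between states in KO hosts held in all alternatives, as did both of Cd200r1 and of Lilrb4a between states in KO hosts. Of 3 genes called in dormant KO against dormant WT, the count became 6 with median-ratio scaling (Cd24a, Lilrb4a and Sirpa added), 5 with quantile normalization, and 2 to 5 on leaving out a library (5 without dormant WT replicate 3). The 1 gene called in growing KO against growing WT became 0 with a pseudocount of 5. The 1 gene called in dormant WT against growing WT became 0 in a fit of only the groups compared, 0 with array weights, and 0 to 2 on leaving out a library (0 without growing WT replicate 1 or 3, 2 without dormant WT replicate 2). The 2 interaction calls became 1 with array weights, 3 with median-ratio scaling or quantile normalization, and 2 to 3 on leaving out a library (3 without dormant WT replicate 1 or 2). The 5 genes called in dormant KO against growing KO became 4 to 6, with 6 in a fit of only the groups compared or with array weights (Cd24a added) and 4 with a pseudocount of 0.1, no filter (Sirpa lost in both), a minimum of 5 TPM (Sirpa no longer tested) or quantile normalization (Cd47 lost), and 4 to 5 on leaving out a library. With median-ratio scaling 5 were called, with Lgals9 in place of Cd47. The causes were not tested. Median-ratio scaling moved the median over all genes from 0.17 to 0.50 in dormant KO against dormant WT, with 2289 higher and 804 lower calls in place of 1677 and 1221, and from -0.32 to 0.09 in dormant KO against growing KO, with 1491 and 663 in place of 1080 and 1233. Quantile normalization moved these medians to -0.14 and -0.14, and that of dormant WT against growing WT from -0.35 to 0.04, with 489 and 478 calls in place of 240 and 737. Libraries with the same replicate number did not deviate together (r between -0.01 and 0.02), so the numbers do not pair them, and the replicate block ended 1 call among the 10 genes (Lgals9 in dormant KO against dormant WT, 1.25, adjusted p = 0.0525).

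Directions turned only for differences that were not called. On leaving out a library, dormant KO against dormant WT ranged from -2.37 to 0.18 for Cd274 and from -0.54 to 1.09 for Havcr2. Growing KO against growing WT ranged from -0.08 to 0.53 for Cd274, -0.24 to 0.94 for Pvr, -0.20 to 0.29 for Cd24a and -0.76 to 0.02 for Cd200r1. Dormant WT against growing WT ranged from -0.86 to 1.70 for Cd274, -0.72 to 0.51 for Cd24a, -0.50 to 0.29 for Cd200r1 and -0.39 to 0.70 for Havcr2. Dormant KO against growing KO ranged from -1.25 to 0.06 for Pvr and -1.02 to 0.51 for Havcr2, and the interaction of Havcr2 from -1.35 to 0.27. For Havcr2, quantile normalization gave -0.11 in dormant KO against dormant WT, and dormant KO against growing KO was 0.01 with a pseudocount of 5, 0.13 with median-ratio scaling, 0.06 with quantile normalization and 0.08 with array weights. For Cd24a, quantile normalization gave -0.02 in growing KO against growing WT, and median-ratio scaling 0.01 in dormant WT against growing WT. In the last contrast Cd274 was -0.74 with a pseudocount of 0.1, and Cd200r1 was 0.73 with quantile normalization.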
